A study of Mus musculus with 12 samples.

Results

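H3K27me3, the histone mark laid down by Polycomb repressive complexes, was compared between wild-type embryos and embryos lacking HOXA13 and HOXD13, in the distal part of the E11.5 mouse forelimb bud. The members are all autosomal peaks of the 2 E11.5 H3K27me3 peak lists, 38597 in number: 19624 of the wild type and 18973 of the Hoxa13-/-;Hoxd13-/- embryos, called the double mutant here. They are part of the 189536 peaks in the 7 lists of the series. The X chromosome was left out because its lists were very unequal, with 9251 wild-type and 385 double-mutant peaks, and the labels do not give the sex of the embryos.

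Both groups are forelimb buds of a mixed C57BL/6 and CD1 background at E11.5, and both were immunoprecipitated with the same H3K27me3 antibody (from Millipore) after formaldehyde cross-linking. The wild type carries no Hox13 mutation in its label. The double mutant is homozygous for a Hoxa13 allele with a neomycin cassette in the coding region and for a Hoxd13 allele with lacZ in the first exon, so both genes are lost in every cell of the embryo and not in the limb alone. Whether embryos were pooled is not stated. Other lists of the series serve as readouts: H3K27ac, a mark of active promoters and enhancers, in both genotypes; HOXA13 and HOXD13 binding in wild type; and H3K27me3 in CD1 forelimb buds at E10.5, taken with another antibody (from Cell Signaling). Each group is 1 library, so no difference below has a replicate check and no p-value is given. Intervals are 95% intervals, Wilson for shares and order-statistic for medians, and cover the counting of peaks only.

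Polycomb repressive complex 2 trimethylates lysine 27 of histone H3 and thereby marks genes that are silent in a tissue. The mark forms broad domains over developmental regulators such as the Hox clusters, and narrow ones at many isolated sites. HOXA13 and HOXD13 are the Hox factors of the distal limb bud, where they are needed for the digits to form. The comparison asks how the Polycomb landscape of this tissue differs when both factors are missing.

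Double-mutant peaks were narrower. The median width was 2235 bp in wild type (2194 to 2272) and 1682 bp in the double mutant (1652 to 1712), and the mean was 3784 bp against 3160 bp. Together the wild-type peaks covered 74.3 Mb and the double-mutant peaks 60.0 Mb. In number of peaks the lists differed most at the narrow end: peaks under 1 kb made up 12.2% of the wild-type list (11.7 to 12.7%) and 27.2% of the double-mutant list (26.6 to 27.9%). The 10th percentile of width was 962 bp for wild-type and 731 bp for double-mutant peaks. In covered length these narrow peaks ran against the total, with 2.05 Mb in the wild-type list and 4.05 Mb in that of the double mutant. Wider classes held the deficit. Peaks of 5 to 10 kb covered 20.2 and 15.4 Mb, those of 10 to 20 kb 11.8 and 8.69 Mb, and those of 20 kb or more 10.2 and 7.70 Mb. The widest class held 318 wild-type peaks (1.62%) and 251 double-mutant peaks (1.32%) of 20 kb or more.

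**Figure D1:**
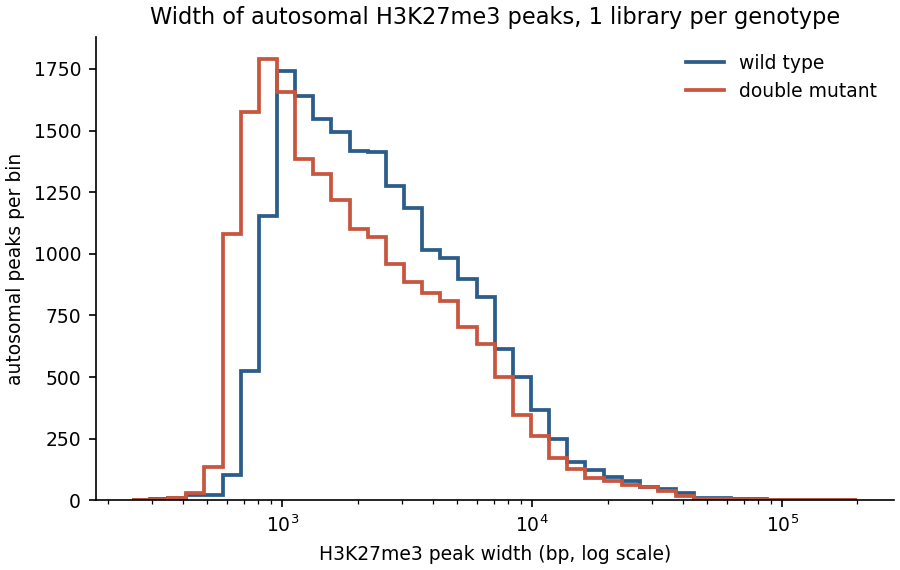
Number of autosomal H3K27me3 peaks (vertical axis) by peak width in bp (horizontal axis, log scale) for the wild type and for the double mutant, 1 library each. The double-mutant curve is shifted to narrower peaks, with medians of 1682 bp and 2235 bp, and both curves meet at the broad end.

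The narrow peaks were also the ones that the other genotype lacked. Of all wild-type peaks, 30.4% had no overlapping double-mutant peak, and of all double-mutant peaks 15.8% lacked a wild-type one. These shares depended on width: among wild-type peaks the share without a partner was 72.5% under 1 kb, 50.4% from 1 to 2 kb, 12.9% from 2 to 5 kb and 3.16% from 5 to 10 kb. Of 889 wild-type peaks of 10 to 20 kb 11 lacked a partner, and of 318 wider ones 1 did. Among double-mutant peaks the share was 38.8% under 1 kb, 15.5% from 1 to 2 kb and 2.65% from 2 to 5 kb. Only 12 of the double-mutant peaks without a partner reached 5 kb, and none of the 905 double-mutant peaks of 10 kb or more lacked one.

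They were low-scoring as well. The score is the value the peak caller gave each peak, and it is used here within 1 list only. Of the wild-type peaks in the lowest quintile by score 71.8% had no double-mutant partner, against 0.599% (27 of 4511) in the highest quintile. In the double-mutant list the shares were 43.0% and 0.0791% (3 of 3795). Wild-type peaks without a partner had a median width of 1208 bp and lay a median of 9690 bp (8829 to 10663) from the nearest double-mutant peak. For the double-mutant peaks without a partner these values were 866 bp and 4483 bp (4079 to 4880). With both lists reduced to their 18973 highest-scoring peaks, which removed the 651 lowest-scoring wild-type peaks, the shares without a partner were 28.7% and 16.3%, and the median wild-type width was 2320 bp. With the lists cut to equal covered length instead, which left 9639 wild-type against 18973 double-mutant peaks, the order turned, to 5.13% and 38.7%. The lists carry no read depth, and a shallower library yields fewer and narrower peaks; depth and genotype cannot be told apart here.

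Peaks without a partner and the trimmed edges of shared domains made up similar parts of the missing length. Of the wild-type covered length, 54.7 Mb (73.7%) was also covered in the double mutant. The other 19.5 Mb comprised 9.08 Mb in peaks without a partner (46.5%), 9.31 Mb at the outer edges of shared domains (47.7%) and 1.15 Mb in gaps inside them (5.88%, 2991 gaps). In the opposite direction 5.24 Mb was covered in the double mutant only: 3.10 Mb in peaks without a partner, 1.94 Mb at edges and 0.199 Mb in 681 gaps.

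These stretches differed in whether they had carried the mark a day earlier. Of the length covered in both genotypes at E11.5, 69.9% was also covered in the E10.5 list. That share was 39.2% for wild-type stretches that were gaps in the double mutant, 29.5% for wild-type edges and 15.4% for wild-type peaks without a partner. For double-mutant peaks without a partner it was 7.66%. The E10.5 library differs from those of E11.5 in stage, strain, limb part and antibody at once, and their parts in these shares cannot be told apart.

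The E10.5 list, called from neither E11.5 library, also gave a fixed frame in which to compare the genotypes. It holds 15077 autosomal peaks covering 50.2 Mb. Of this length 85.3% was covered by wild-type peaks and 77.4% by double-mutant peaks. The wild type covered more of 7425 E10.5 peaks (49.2%), the double mutant covered more of 1365 (9.05%), and 6287 were covered equally. The gap between genotypes narrowed with the width of the E10.5 peak, from 67.3% against 54.1% of the length for peaks of 1 to 2 kb to 97.1% against 94.7% for peaks of 20 kb or more.

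A shared domain is a connected group of overlapping wild-type and double-mutant peaks with at least 1 of each. There were 12975, made of 13656 wild-type and 15966 double-mutant peaks. Wild-type peaks covered 65.2 Mb of them and double-mutant peaks 56.9 Mb. The double mutant covered less in 10586 of them (81.6%), more in 2383 and the same in 6. The median log2 ratio of double-mutant to wild-type covered length was -0.21 (-0.22 to -0.21), or 86.3% of the wild-type length. A 2-fold or greater deficit in the double mutant was found in 1267 domains, 9.76% of all, and a 2-fold or greater excess in 119, 0.917%. At equal list length there were 12882 shared domains, the median log2 ratio was again -0.21, and the shares were 9.83% and 0.862%.

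**Figure D2:**
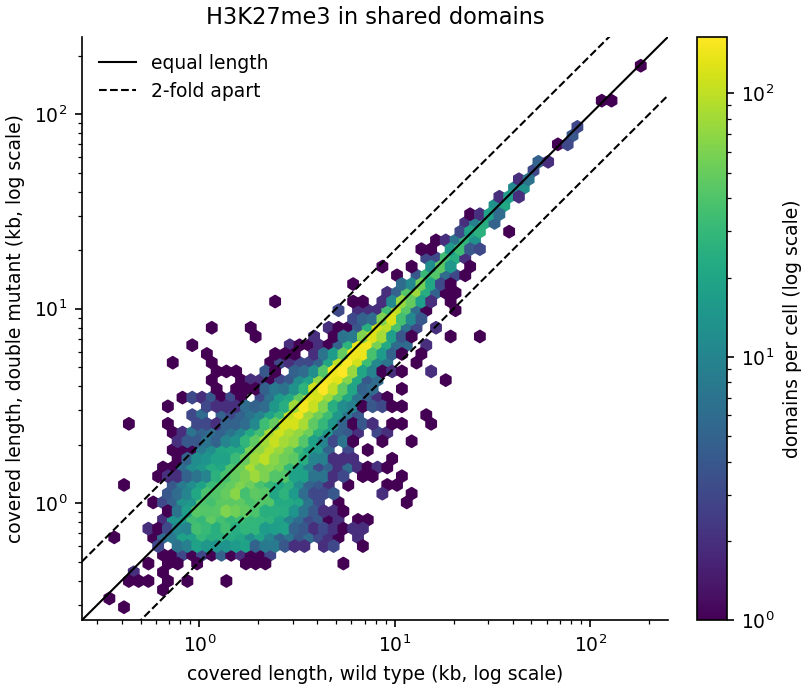
Covered length of each of the 12975 shared domains in kb, wild type (horizontal axis, log scale) against double mutant (vertical axis, log scale), with colour for the number of domains per cell. Most domains lie just below the solid line of equal length, 1267 lie on or below the lower dashed line of a 2-fold difference and 119 on or above the upper one.

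The difference was present on each of the 19 autosomes, where the median log2 ratio ran from -0.25 on chromosome 14 to -0.16 on chromosome 13. It was proportionally greatest in small domains and nearly absent in the broadest. In domains of 1 to 2 kb (geometric mean of both lengths) the median double-mutant length was 71.6% of wild type, in those of 2 to 5 kb 85.6%, in those of 5 to 10 kb 91.1%, and in the 325 domains of 20 kb or more 97.7%. In bp the difference changed far less: the median of double-mutant minus wild-type length was -478.5 bp in domains of 1 to 2 kb and -795 bp in those of 20 kb or more.

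Broad domains instead more often held extra double-mutant peaks, counted per domain and not per length. Across all domains, 80.1% held 1 peak of each genotype and 15.4% (1992) held 1 wild-type peak and several double-mutant peaks, 4539 of them. The reverse, several wild-type peaks against 1 double-mutant peak, made up 2.36% (306). Counted by peak number, 2078 domains, 16.0% of all, had more double-mutant than wild-type peaks, and 329, 2.54%, had more wild-type peaks. At equal length the shares were 16.2% and 2.35%. The share with more double-mutant peaks was 2.92% in domains of 1 to 2 kb, 16.6% from 2 to 5 kb, 25.6% from 5 to 10 kb, 42.9% from 10 to 20 kb and 52.0% (46.6 to 57.4%) at 20 kb or more. In that last class 8.92% (6.28 to 12.5%) had more wild-type peaks, against 0.817% in domains of 1 to 2 kb. Both shares thus rose with size. A longer domain has more room for a gap, and no rate per length was taken. When peaks closer than 1000 bp were joined first, the overall shares were 6.48% and 1.75%, so most of the extra pieces were parted by short gaps.

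**Figure D3:**
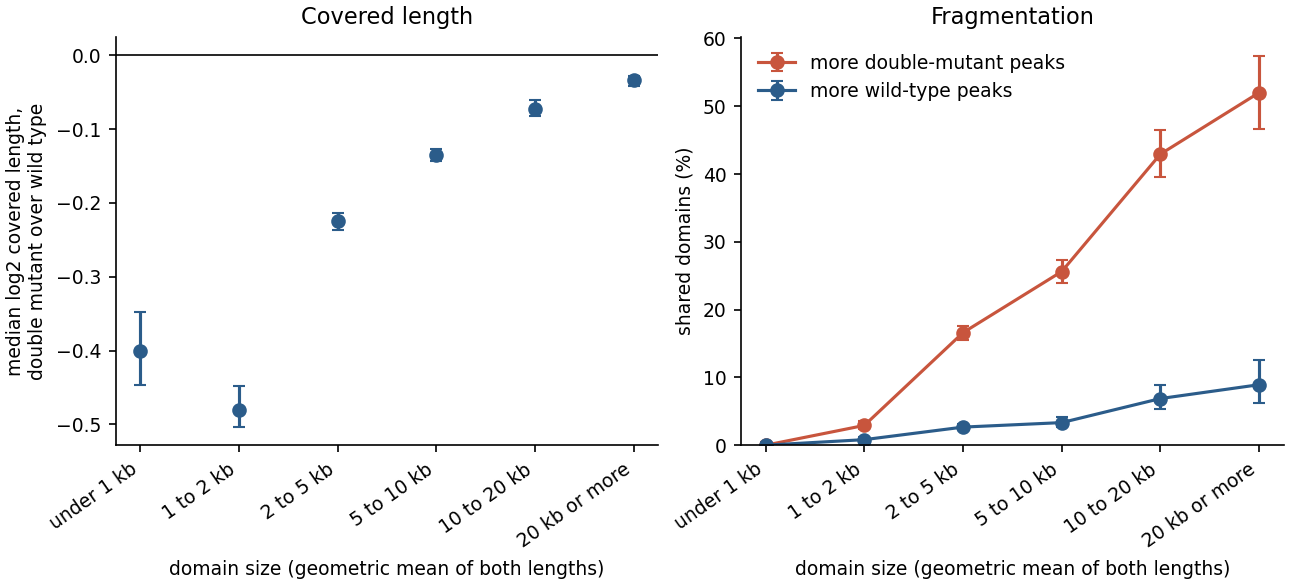
Left, median log2 ratio of double-mutant to wild-type covered length by size class of shared domain, with 95% order-statistic intervals; right, share of shared domains (%) with more double-mutant or more wild-type peaks, with Wilson 95% intervals. Small domains have the lower ratios, and the share with more double-mutant peaks reaches 52.0% in domains of 20 kb or more against 8.92% for the reverse.

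The widest peaks show this in single regions. All positions are on mm9. The widest wild-type peak, chr15:102725117-102906289 (181 kb), was 97.9% covered in the double mutant, by 4 peaks. The second, chr2:74479846-74605456 (126 kb), was 96.3% covered by 5 peaks, and the third, chr11:96107103-96220059 (113 kb), 98.4% by 2. The fourth, chr12:111373899-111460753 (86.9 kb), was 99.7% covered by 2 peaks and the fifth, chr8:94368673-94453615 (84.9 kb), 97.4% by 6. These 5 were therefore nearly as long in the double mutant but never in 1 piece. The mouse Hoxc, Hoxd and Hoxb clusters lie on chromosomes 15, 2 and 11; no annotation of this build was used, so whether the first 3 peaks cover them was not determined here.

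The widest double-mutant peaks were covered almost completely in the wild type. They were chr15:102729196-102903283 (174 kb), chr11:96108837-96219393 (111 kb), chr9:91241535-91318541 (77.0 kb), chr12:111387585-111460875 (73.3 kb) and chr5:120068976-120141540 (72.6 kb). The first 4 met 1 wild-type peak each and the last met 2, and between 99.8% and 100% of their length was covered. Over all 318 wild-type peaks of 20 kb or more, the median share covered in the double mutant was 97.2%, and 188 (59.1%) met several double-mutant peaks. Of the 251 double-mutant peaks of that width, 45 (17.9%) met several wild-type peaks.

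The most fragmented domains were chr4:139330768-139412809, where 1 wild-type peak faced 8 double-mutant peaks, chr8:94299123-94367765 (2 against 9) and chr2:164984849-165028683 (1 against 8). Their double-mutant covered length was 94.7%, 98.1% and 87.3% of wild type. The first and the third were almost fully covered at E10.5, at 98.1% and 91.3% of their span, and the second to 62.9%. Domains with the opposite excess also exist. At chr8:37533869-37556356, 8 wild-type peaks faced 1 double-mutant peak of 22002 bp, against 18096 bp covered in wild type. At chr2:35064282-35092429 it was 6 against 1 and at chr16:94372959-94417658 7 against 3, with double-mutant lengths of 116.7% and 104.6% of wild type. The chromosome 8 and chromosome 2 domains of this kind had no E10.5 peak. The excess of wild-type peaks was 0 in the chromosome 8 domain once peaks closer than 1000 bp were joined, and 0 in the chromosome 16 domain when overlap of 50% was asked for.

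Among shared domains of 10 kb or more, the lowest ratios were found at chr5:132058401-132069836 (11436 bp in wild type, 951 bp in the double mutant), chr13:24537780-24549342 (11563 and 1080 bp) and chr12:51897378-51908233 (10856 and 1204 bp). Each overlapped at least 1 HOXA13 and 1 HOXD13 peak. Of all 785 shared domains of 10 to 20 kb by geometric mean, 300 overlapped a HOX13 peak. By geometric mean the 3 domains named here fall in the class of 2 to 5 kb, where 962 of 4983 did. The chromosome 13 and 12 domains had no E10.5 H3K27me3 and no H3K27ac in either genotype, whereas the chromosome 5 domain was 78.1% covered at E10.5. The highest ratios were at chr8:25213754-25224036 (2474 bp in wild type, 10283 bp in the double mutant), chr1:106971873-106984991 (6132 and 13119 bp) and chr16:30875859-30886049 (5061 and 10191 bp). These 3 also overlapped 1 HOXA13 and 1 HOXD13 peak each and had no E10.5 peak. By geometric mean they fall in the class of 5 to 10 kb, where 586 of 2491 shared domains overlapped a HOX13 peak. A HOX13 peak at the domain therefore accompanied differences of both signs.

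Domains were also compared by the rank of their score. Each domain was given the percentile of its best score within its own list, with tied scores at their mid-rank. Across the 12975 domains Spearman's rho was 0.891, and 0.723 over the 8494 domains below the score of 3100 in both lists, a value that 22.6% of wild-type and 16.5% of double-mutant peaks hold exactly. This is a description across domains of the same 2 libraries. In the 3088 domains at or above that score in both lists the ranks are nearly fixed by the tie. Among the 8494 others below it in both lists, the percentile differed by less than 10 points in 4756 (56.0%). The median shift over all domains, double mutant minus wild type, was -0.27 points (-0.58 to 0.07) on the full lists and 1.03 points (0.70 to 1.38) at equal length. The sign of this median, which includes the tied domains, was not stable. Over the domains below 3100 in both lists the median was -2.88 points on the full lists and -1.57 at equal length. A percentile 20 or more points lower in the double mutant was found in 1269 domains, 9.78% of all, and one 20 or more points higher in 619, 4.77%. Of these, 1143 and 601 were among the 8494 domains below 3100 in both lists. At equal length the shares were 8.70% and 5.37%. With the lists cut to equal covered length the order turned, to 1.27% lower and 42.7% higher.

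Rank and length went together. Of the 619 domains that ranked higher in the double mutant 560 were longer there, and of the 1269 that ranked lower 11 were. The median log2 length ratio was 0.50 in the former and -1.22 in the latter. A score gathers evidence over the whole peak, so the 2 measures are not independent.

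The 3 largest downward shifts were at chr5:119395111-119402034, from the 74.5th to the 1.12th percentile with 6924 and 625 bp covered, at chr8:94704061-94709621, from 74.2 to 1.65 with 5561 and 471 bp, and at chr6:117350299-117356887, from 88.3 to 15.9 with 6589 and 729 bp. Each overlapped a HOXA13 peak and had no E10.5 peak. Of all 12975 shared domains, 2558 overlapped a HOX13 peak and 4528 had no E10.5 peak. The 3 largest upward shifts were at chr15:12997879-13004534, by 76.4 points to the 77.8th percentile with 896 and 6656 bp, at chr19:61250960-61252933, by 70.8 points with 725 and 1974 bp, and at chr17:39975700-39990561, by 68.9 points. The first of these also overlapped a HOXA13 and a HOXD13 peak and had no E10.5 peak, the second overlapped none of these, and the third overlapped a HOXD13 peak. At equal list length the chromosome 15 and 19 domains were no longer shared, since their wild-type scores of 52.17 and 50.29 lay below the lowest one kept, 55.56; the chromosome 17 domain was then shifted by 71.5 points. The chromosome 17 domain went against the general pattern, since its double-mutant length was 10087 bp against 14862 bp in wild type.

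Wide wild-type peaks that were missing from the double mutant formed a small group. Of 4152 wild-type peaks of 5 kb or more, 105 had no double-mutant peak at all. A HOXA13 or HOXD13 peak overlapped 81 of the 105, or 77.1% (68.2 to 84.1%). Among the 4016 shared domains of this size whose lengths were less than 2-fold apart, the share was 28.9% (27.5 to 30.3%), although these were longer, with a median span of 7814 bp against 6259 bp. Among the 145 shared domains with a 2-fold or greater deficit it was 50.3% (42.3 to 58.4%). Among the 17 with a 2-fold or greater excess in the double mutant it was 58.8% (36.0 to 78.4%), so HOX13 overlap was not particular to losses. The 5 kb limit and this comparison were chosen after the values were seen. At equal list length the counts for the 105, the 145 and the 4016 were the same, and 9 of 16 domains with an excess overlapped a HOX13 peak. That cut removed no wild-type peak of 2 kb or more and no double-mutant peak, so the 105 could not change by construction.

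The same 105 peaks mostly lay outside the E10.5 landscape. Only 12 (11.4%, 6.66 to 18.9%) overlapped an E10.5 H3K27me3 peak, against 48.3% of the domains with a 2-fold deficit and 91.8% (90.9 to 92.6%) of those less than 2-fold apart. Of the 17 domains with a 2-fold or greater excess in the double mutant, 5 did (29.4%, 13.3 to 53.1%). Both readouts counted together as follows. Of wild-type peaks of 5 kb or more without E10.5 H3K27me3, 74 of 284 with a HOX13 peak lacked a double-mutant peak (26.1%, 21.3 to 31.5%), against 19 of 165 without one (interval 7.50 to 17.3%). Where E10.5 H3K27me3 was present, the counts were 7 of 980 (0.714%) and 5 of 2723 (0.184%). The relation to HOX13 held for wide peaks and had the opposite sign with all widths pooled. There, 702 of 3220 wild-type peaks with a HOX13 peak lacked a partner (21.8%, 20.4 to 23.3%) against 5266 of 16404 without one (32.1%, 31.4 to 32.8%). The 2 pools differ in width: peaks under 1 kb, which most often lack a partner, were 132 of the 3220 and 2261 of the 16404. In peaks of 2 to 5 kb the shares were 18.3% (16.2 to 20.6%) with a HOX13 peak and 11.7% (10.9 to 12.6%) without one. In peaks of 1 to 2 kb no such contrast was seen: 51.1% (47.1 to 55.0%) with a HOX13 peak and 50.3% (49.1 to 51.6%) without one lacked a partner.

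The mirror group was smaller. Only 12 double-mutant peaks of 5 kb or more lacked a wild-type peak. A HOX13 peak overlapped 2 of them, none overlapped an E10.5 peak, and none overlapped H3K27ac in either genotype; 0 of 12 allows a share of up to 24.2%. Of 136 wide double-mutant peaks with a HOX13 peak and no E10.5 H3K27me3, 2 lacked a wild-type partner (1.47%, 0.404 to 5.20%). Of 102 with neither, 10 did (9.80%, 5.41 to 17.1%), the opposite order to that of the wide wild-type peaks. At equal list length the counts were 3 and 10.

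Few of these 105 peaks carried acetylation. Double-mutant H3K27ac overlapped 24 (22.9%, 15.9 to 31.8%) and wild-type H3K27ac 11 (5.95 to 17.8%). Among the domains less than 2-fold apart the shares were 44.0% and 31.8%. Acetylation in the double mutant without acetylation in wild type was found at 14 of the 105. Among the domains less than 2-fold apart it was found at 597 of 4016, a similar share.

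HOX13 peaks sat at the borders of these wide peaks rather than inside them. For each H3K27me3 peak the overlapping HOXA13 peak with the best score was taken. Its midpoint lay outside the H3K27me3 peak in 61 of the 76 that had one (80.3%, 70.0 to 87.7%), against 295 of 1103 (26.7%, 24.2 to 29.4%) wide peaks kept in the double mutant. It lay within 1 kb of the border in 85.5% and 38.4%. For HOXD13 the midpoint lay outside in 65 of 77 (84.4%) and 290 of 918 (31.6%). The HOXA13 peaks concerned were strong: their median percentile by score in the HOXA13 list was 95.3 (91.6 to 96.8), against 68.8 (65.7 to 72.5) at the kept peaks. The missing and the kept wide peaks also differ in E10.5 overlap and in width, and they were not matched for either. Of the 105, 96 had another wild-type H3K27me3 peak less than 3 kb away, and in 73 of these a HOXA13 midpoint lay in the space between. This was not counted for the kept wide peaks, so whether it is particular to the 105 is not known. Neighbours that both belong to the 105 can share 1 HOXA13 peak and are counted apart in these shares.

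Seen from the binding sites, H3K27me3 flanked the strongest HOXA13 peaks and was less frequent there in the double mutant. Binding was mapped in wild type only, and the distance of 2 kb and the score classes were chosen after the values were seen. Of the 307 autosomal HOXA13 peaks in the top 1% by score, the midpoint itself was covered by wild-type H3K27me3 in 8.47% and by double-mutant H3K27me3 in 6.84%. At 2 kb from the midpoint the share of positions covered was 31.4% in wild type, 17.4% in the double mutant and 10.6% at E10.5. At 50 kb it was 7.00%, 5.37% and 4.23%. Around the 15329 HOXA13 peaks of the lower 50% the shares at 2 kb were 7.57%, 6.15% and 5.20%. At equal list length the top 1% gave 31.3% and 17.4% at 2 kb. The centre of the top sites was acetylated in 75.9% of wild-type and 53.4% of double-mutant cases.

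**Figure D4:**
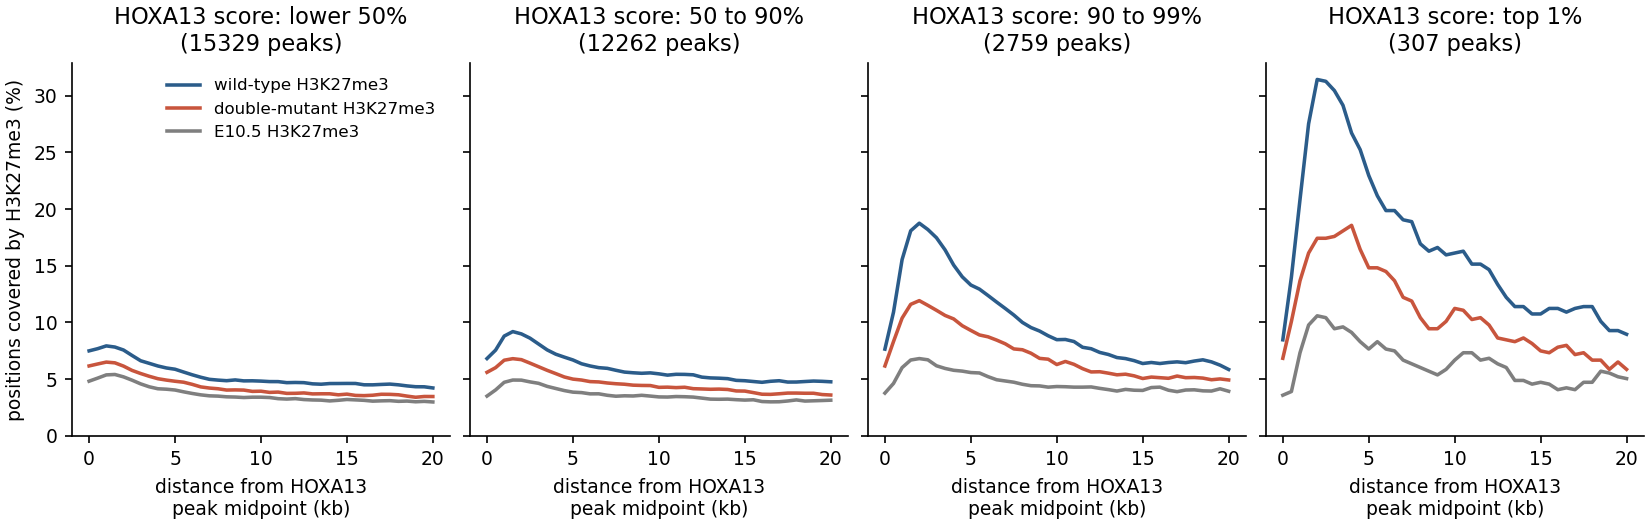
Share of positions covered by H3K27me3 (%) against the distance from the midpoint of HOXA13 peaks (kb, both sides averaged), in 4 classes of HOXA13 score, for wild type, double mutant and E10.5. In the top 1% class the wild-type curve reaches 31.4% at 2 kb, where the double-mutant curve is at 17.4% and the E10.5 curve at 10.6%; in the lower 50% class the 3 curves lie close together.

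Counted per site, 118 of the 307 strongest HOXA13 peaks (38.4%, 33.2 to 44.0%) had H3K27me3 2 kb away on 1 or both sides in wild type, 65 (21.2%, 17.0 to 26.1%) in the double mutant and 41 (13.4%) at E10.5. Of the 118, 56 (47.5%, 38.7 to 56.4%) had none there in the double mutant, and 3 sites had it in the double mutant alone. Of these 56, 49 (87.5%) had none at E10.5. At the weakest 50% of HOXA13 peaks, 419 of 1642 (25.5%, 23.5 to 27.7%) lacked it in the double mutant. The intermediate classes gave 30.4% and 42.4%, so the share was greater in each higher class of score, although the intervals of the 2 highest classes overlap. HOXD13 peaks gave the same order, at 23.5%, 32.7%, 43.2% and 44.6%, again with overlapping intervals in the 2 highest. Both factors often have peaks at the same sites, so these are not separate evidence.

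Within shared domains the HOX13 contrast was small in the median and larger in the shares with a 2-fold difference of either sign. The median log2 ratio of domains of 2 to 5 kb was -0.23 with a HOX13 peak and -0.22 without one. A 2-fold or greater deficit was found in 9.67% (7.96 to 11.7%) and 5.35% (4.69 to 6.09%) of them, and in 3.41% and 0.472% of domains of 5 to 10 kb. Over all sizes the shares were 9.77% and 9.76%, since domains with a HOX13 peak were longer. A 2-fold or greater excess was rarer but also more frequent with a HOX13 peak. It was found in 1.35% with and 0.671% without one at 2 to 5 kb, and in 0.512% and 0% at 5 to 10 kb. Over all sizes these shares were 1.25% and 0.835%.

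The missing length was unevenly spread along chromosomes. In windows of 1 Mb, 938 held at least 40 kb of H3K27me3 summed over both genotypes, and the double mutant covered less in 841 (89.7%). The deficit was 2-fold or greater in 41 windows and the excess in 2. The lowest ratio was on chromosome 6 from 101 to 102 Mb, with 15 wild-type peaks covering 45.7 kb and 1 double-mutant peak of 0.779 kb. This window held no E10.5 H3K27me3 peak. Next came chromosome 6 from 34 to 35 Mb (46.3 and 3.20 kb), chromosome 2 from 75 to 76 Mb (40.2 and 3.37 kb), chromosome 12 from 51 to 52 Mb (38.3 and 3.73 kb) and chromosome 10 from 87 to 88 Mb (63.1 and 6.93 kb). The 2 windows in the other direction were chromosome 5 from 43 to 44 Mb, with 7.17 kb of wild-type and 46.0 kb of double-mutant peaks, and chromosome 2 from 171 to 172 Mb, with 14.3 and 36.9 kb. The number of HOXA13 peaks varied among these windows. In the 5 lowest, in the order named, it was 24, 17, 69, 5 and 15. In the 2 windows in the other direction it was 22 and 24. Over the 938 windows the median was 14 and the 95th percentile 33.15. Among the windows named, only that on chromosome 2 from 75 Mb lay above this percentile.

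The highest-scoring wild-type peaks without a partner were chr5:119711488-119721523 (10036 bp), chr13:3342856-3347270 (4415 bp) and chr9:65018411-65024113 (5703 bp). The first and the third overlapped a HOXA13 and a HOXD13 peak and had no E10.5 peak, and the third was 65.2% covered by H3K27ac in the double mutant and not at all in wild type. The highest-scoring double-mutant peaks without a partner were chr6:88513983-88517360 (3378 bp), chr5:43493482-43499453 (5972 bp) and chr5:43432427-43440347 (7921 bp). None of these 3 overlapped a HOX13, E10.5 H3K27me3 or H3K27ac peak, and the latter pair lies in the chromosome 5 window just described.

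The widest wild-type peak without a partner, singled out after its values were seen, was chr6:52141834-52210460. It spanned 68627 bp on the chromosome that carries the Hoxa cluster, with a score of 486, far below the 3100 of the next widest, chr12:51909619-51924377 (14759 bp). It overlapped 17 HOXA13 and 17 HOXD13 peaks, was 46.8% covered at E10.5 and was 88.1% covered by wild-type and 89.4% by double-mutant H3K27ac. In acetylation and in E10.5 H3K27me3 it thus differed from most of the 105. The chromosome 12 peak lies less than 3 kb from the domain with the third lowest ratio, and a HOXA13 peak spans the space between them, as the map of that domain shows.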

How the data were processed

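H3K27me3, H3K27ac, HOXA13 and HOXD13 ChIP-seq peak lists were used as deposited, each with chromosome, start, end, name and score. Bowtie 0.12.7, MACS 1.4 and the build mm9 are named in the submitters' processing notes, which do not state their roles; the authors' list names pair each library with an input. The deposited score was used to rank or filter peaks within a list, and domains at or above the much-tied score of 3100 were counted apart. The lists hold no read counts, so depth is unknown. The reference at hand is GRCm38, so no gene or sequence was assigned to a peak, and its gene table was used only for the chromosomes of the Hox clusters.

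Autosomal peaks overlapped where they had at least 1 bp in common. Covered length, shared domains and ranks were computed with Python 3.11.15, NumPy 2.4.6, pandas 2.3.3 and SciPy 1.17.1, and the code was tested on simulated data. Peak widths, unshared length, domains 2-fold apart, peak numbers and rank shifts of 20 points were described without a test. Named regions are the 5 widest peaks of each genotype and 3 regions at each extreme of length ratio, peak number, rank shift and score without a partner. The members, lists and rules were chosen with earlier results of these data known. The 6 alternatives were equal list length, a score of 100 or more, overlap of 50% of either peak, joining peaks closer than 1000 bp, the 10000 highest-scoring peaks, and equal covered length. The input libraries were not analysed here.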

Additional observations from a re-analysis of the deposited data

How the results depend on the processing

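The median length ratio of shared domains was below 0 in every one of the 6 alternatives. Of 82 values of named regions 80 kept their direction and 2 were 0, the excess of wild-type peaks in the chromosome 8 domain with joined peaks and in the chromosome 16 domain at 50% overlap; 26 more could not be given because the domain was no longer shared. Of 102 values of the main measures 36 were counted as unchanged and 66 as moved. Unchanged means within the interval of the main value. The covered-length ratio and the E10.5 lengths have no interval and counted as unchanged where the rounded value was equal. Some values could not change by construction, such as peak widths at 50% overlap. Measures that involve HOX13 or E10.5 peaks were added after seeing the data. No paired analysis was possible because each genotype is 1 library. Without read depth, depth and genotype cannot be told apart in any of these values.

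With both lists at equal length, the share of wild-type peaks without a double-mutant peak was 28.7%, the ratio of covered length (wild type over double mutant) 1.23, the median wild-type width 2320 bp, the rank rises and falls 5.37% and 8.70%, and the E10.5 length covered in wild type 85.2%.

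Equal covered length left 9639 wild-type against 18973 double-mutant peaks, so it removed the weaker peaks of one list alone. The order of the shares without a partner was then turned, at 5.13% of wild-type and 38.7% of double-mutant peaks, and so was that of rank rises and falls, at 42.7% and 1.27%. The covered-length ratio was 1.00 by construction, the median wild-type width 4441 bp, the median log2 ratio -0.18, 2-fold deficits and excesses 7.06% and 0.223%, domains with more double-mutant or more wild-type peaks 21.4% and 0.624%, and the E10.5 length covered in wild type 79.5%.

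Overlap of 50% gave 31.7% and 17.9% of wild-type and double-mutant peaks without a partner, and 14.7% and 1.91% of domains with more double-mutant or more wild-type peaks.

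Joining peaks gave 27.002% and 15.1% without a partner, a covered-length ratio of 1.23, median widths of 2846 and 2395 bp, a median log2 ratio of -0.23, 2-fold deficits and excesses of 11.62% and 1.54%, more double-mutant or wild-type peaks in 6.48% and 1.75%, rank rises in 3.19%, and E10.5 length covered of 85.8% and 78.2%. Wide wild-type peaks without a HOX13 peak then lacked a partner in 1.43%.

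A score of 100 or more gave 8.87% of double-mutant peaks without a partner, a covered-length ratio of 1.27, median widths of 2854 bp in wild type and 2566 bp in the double mutant, a median log2 ratio of -0.20, 2-fold deficits and excesses of 6.29% and 0.608%, more double-mutant or wild-type peaks in 11.1% and 2.05%, rank rises and falls of 2.45% and 15.1%, and E10.5 length covered of 84.2% and 75.5%. Wide wild-type peaks with a HOX13 peak then lacked a partner in 7.99%.

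The 10000 highest-scoring peaks gave 17.1% and 10.3% without a partner, a covered-length ratio of 1.20, median widths of 4317 and 3468 bp, a median log2 ratio of -0.18, 2-fold deficits and excesses of 4.20% and 0.283%, more double-mutant or wild-type peaks in 7.97% and 1.08%, rank rises in 4.40%, and E10.5 length covered of 80.0% and 72.8%. Wide wild-type peaks with and without a HOX13 peak then lacked a partner in 9.50% and 2.42%, and 63.2% of the 190 without a partner held a HOX13 peak. The cause was not tested where no construction is named.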
